A study of Mus musculus with 6 samples.

Results

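Transcripts of 35 genes of fatty acid synthesis and oxidation were compared between mouse blast-crisis leukaemia cells labelled SLC6A6 KO and cells labelled WT. The genes are enzymes and carriers that make, activate and burn long-chain fatty acids, and were chosen with earlier results of these data known. They form 3 arms, with 12 genes of synthesis, desaturation and first esterification, 4 acyl-CoA synthetases that activate fatty acids, and 19 genes of the carnitine shuttle and β-oxidation. All 35 were among the 53819 genes of the table and among the 15232 genes that passed the filter on low counts. Both groups were leukaemia cells sorted from the spleen of mice that had received primary cells carrying BCR-ABL and NUP98-HOXA9, a mouse model of the blast crisis of chronic myeloid leukaemia (bcCML). The 3 KO libraries carry the genotype label SLC6A6 KO and the 3 WT libraries the label WT, while knock-down is the word in the title of the series. The gene, Slc6a6, codes for the carrier that takes up taurine. The age and strain of the mice, the guide or allele behind the KO label, and whether the libraries come from separate mice are not given in the labels. The p-values therefore set the difference between groups only against the spread among these samples, and that spread may be technical.

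Fatty acid synthesis starts from cytosolic acetyl-CoA, which is carboxylated to malonyl-CoA and assembled into palmitate, and palmitate is then elongated, desaturated and esterified. Oxidation runs the other way. Acyl-CoA synthetases attach coenzyme A, the carnitine shuttle carries the chain into the mitochondrion, and repeated rounds of dehydrogenation, hydration, dehydrogenation and thiolysis release acetyl-CoA and pass electrons to the respiratory chain. Malonyl-CoA, the product of the first committed step of synthesis, inhibits the entry step of oxidation, and myeloid leukaemia cells are known to use both directions.

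The libraries held 42829294 to 49537098 counts. Slc6a6 itself was at 125, 132 and 133 CPM (read counts scaled to a common library size by TMM) in KO1, KO2 and KO3, against 151, 145 and 145 CPM in WT1, WT2 and WT3, a log2 fold change of -0.18 ± 0.07 (SE) that did not pass the test (edgeR quasi-likelihood test, adjusted p = 0.196). Total RNA counts outside a deleted stretch would not show a deletion, so this level does not settle the label. Counts of 4 Y-linked genes summed to 11236, 10825 and 10274 in the KO libraries, against 0, 0 and 1 in the WT libraries. Xist, the RNA of a silenced X chromosome, was at 4.41, 0.305 and 0.776 CPM in KO libraries, against 197, 177 and 160 CPM in WT libraries. Sex, which the labels do not give, and the genotype label thus cannot be told apart in any comparison here, autosomal genes included. The 15 leukaemia and myeloid progenitor markers summed to 784 to 906 CPM in KO libraries and 727 to 1018 CPM in WT libraries, and 1 of the 15, Kit, passed the test, at 75.9, 74.8 and 44.6 CPM in KO libraries, against 25.6, 9.90 and 18.1 CPM in WT libraries. Of the 15, 2 were higher in every KO library, Kit and Myb, and 2 were lower, Hoxa9 (edgeR adjusted p = 0.0502) and Cd34. Over all genes tested, 28.0% had groups that did not overlap. Hoxa9, Meis1, Myb, Spn and Ptprc were detected in every library, Cebpa, Cebpe and Itgam stayed under 2 CPM in each, and Mpo, Elane and Cebpa were at 0 in KO1. Summed adipocyte markers, the 8 genes of a cell type rich in lipid enzymes, lay between 0.0435 and 0.248 CPM in KO libraries and between 0.119 and 0.309 CPM in WT libraries, and none of the 8 passed the filter on low counts. In bulk samples such as these, fewer cells of a type and less RNA per cell cannot be told apart.

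No member passed the test between KO and WT libraries in either direction. Across all 15232 genes tested, 250 were higher in KO libraries (1.64%) and 293 were lower (1.92%), 543 in all (3.56%), at an adjusted p under 0.05. DESeq2 and limma-voom also called 0 of the 35 members, while over all genes tested DESeq2 called 1075 higher and 920 lower in KO libraries. At an unadjusted p under 0.05 edgeR found 4 members, Fasn, Scd2, Hadha and Eci2, which is 11.4% of the 35 against 22.0% of all genes tested. DESeq2 found 5 of the 35 at that level, against 24.3% of all genes tested. The KO and WT libraries did not overlap for 6 members (17.1%), against 28.0% of all genes tested. Hadha and Etfa were higher in every KO library, and Fasn, Gpam, Eci2 and Etfb were lower in every KO library. The fitted log2 fold changes of the members, KO over WT, had a median of -0.05 and ran between -0.30 for Acsl4 and 0.79 for Scd1, beside a median of 0.01 for all genes tested. Their median size regardless of sign was 0.10, against 0.26 for all genes and 0.18 for the 7633 genes at least as abundant as the lowest member other than Scd1. The 95% interval of the fold change lay within 2-fold in either direction for 33 of 35 members, all but Scd1 and Acsl1, and within 1.5-fold for 29.

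**Figure D1:**
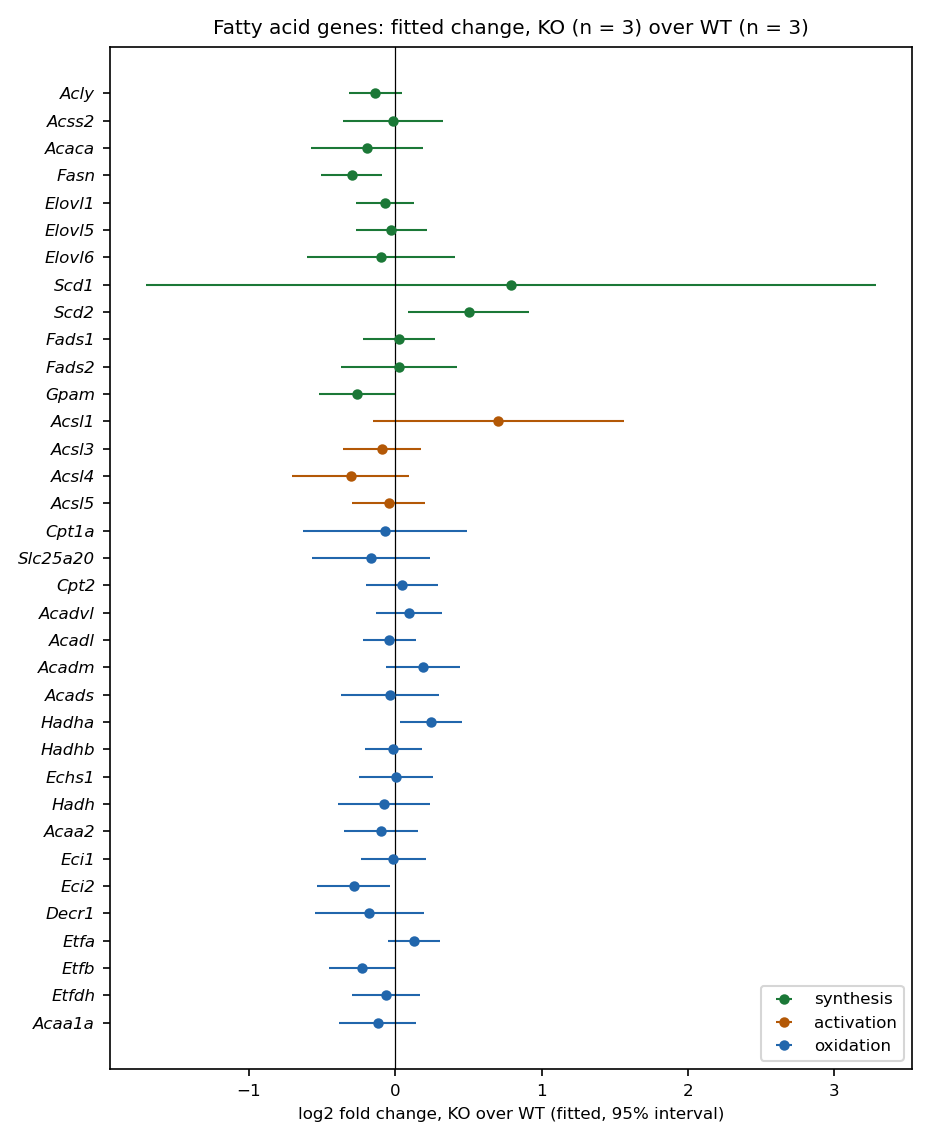
Log2 fold change, KO over WT, of the 35 members by arm, with points for the fitted value and bars for the 95% interval of each gene, unadjusted. The intervals of Fasn, Scd2, Hadha and Eci2 leave out 0, and those of Scd1 and Acsl1 reach past 2-fold.

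The 3 arms were at nearly the same summed level in both groups. Summed over the 12 synthesis genes, KO libraries held 1457 ± 61.3 CPM and WT libraries 1491 ± 29.8 CPM (SD, n = 3 each). Over the 4 acyl-CoA synthetases the sums were 592 ± 75.7 CPM in KO libraries and 580 ± 30.4 CPM in WT libraries. Over the 19 oxidation genes they were 1989 ± 110 CPM in KO libraries and 2012 ± 14.8 CPM in WT libraries. The KO sum was thus 97.7%, 102% and 98.8% of the WT sum in the synthesis, activation and oxidation arms, and in each arm the difference was smaller than the larger of the SDs. The median log2 fold change was -0.05 in synthesis, -0.07 in activation and -0.04 in oxidation. The sums weigh abundant genes most. The median level per kilobase of exon in synthesis was 23.0 ± 1.17 CPM in KO libraries and 25.1 ± 1.96 CPM in WT libraries. In activation it was 16.2 ± 4.87 CPM in KO libraries and 12.3 ± 2.39 CPM in WT libraries. In oxidation it was 42.7 ± 2.24 and 42.4 ± 1.33 CPM.

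Synthesis began with acetyl-CoA supply. Acly, the ATP citrate lyase that splits citrate exported from mitochondria into acetyl-CoA, was at 367, 380 and 371 CPM in KO libraries, against 439, 377 and 411 CPM in WT libraries. The groups overlapped, since WT2 lay within the KO range, and the log2 fold change of -0.14 ± 0.08 did not pass the test (adjusted p = 0.360). Acss2, which makes acetyl-CoA from acetate, was level between the groups at -0.02 ± 0.15.

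Fasn, the multi-domain synthase that builds palmitate, was the synthesis gene with the smallest p. It was at 211, 214 and 214 CPM in KO libraries, against 232, 272 and 282 CPM in WT libraries. The KO libraries were close to one another and all below the lowest WT library. The log2 fold change was -0.30 ± 0.09 (95% interval -0.51 to -0.09), with an adjusted p over all genes of 0.115 by edgeR and 0.0526 by DESeq2. Acaca, the acetyl-CoA carboxylase that supplies malonyl-CoA, had the lowest level per length of the members other than Scd1, at 1.97 ± 0.188 CPM per kilobase of exon in KO libraries and 2.25 ± 0.319 in WT libraries, with overlapping groups. Of its 100-base windows, 23.7% also occur in transcripts of Gm5182, Gm42553 or Mettl6, so part of its counts is uncertain. The Fasn promoter is shown because Fasn is a textbook target of the sterol regulatory element binding proteins and of NF-Y. The 250 bases before the start site (RefSeq, GRCm38.p6, chr11:120824548-120824797, minus strand) carry the NF-Y box CCAAT, in capitals on either strand, at 90, 62 and 59 bases before the start, the last pair overlapping.
Fasn promoter: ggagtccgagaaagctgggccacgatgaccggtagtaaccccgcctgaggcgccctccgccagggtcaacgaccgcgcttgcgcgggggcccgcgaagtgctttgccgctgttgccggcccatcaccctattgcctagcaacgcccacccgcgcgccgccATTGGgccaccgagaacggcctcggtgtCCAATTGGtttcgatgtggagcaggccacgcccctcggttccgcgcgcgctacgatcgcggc

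Of the elongases, which add carbon pairs to a chain, Elovl1 acts on very long chains, Elovl5 on polyunsaturated chains and Elovl6 on palmitate. Elovl1 was at 188, 194 and 208 CPM in KO libraries, against 189, 214 and 217 CPM in WT libraries. The log2 fold changes of the 3 elongases lay between -0.10 and -0.03, and their groups overlapped. None of the 4 desaturases passed the test. Scd2, a stearoyl-CoA desaturase that puts the first double bond into saturated chains, was at 280, 182 and 272 CPM in KO libraries, against 175, 152 and 191 CPM in WT libraries. KO1 and KO3 stood above every WT library and KO2 lay between WT1 and WT3. The log2 fold change was 0.50 ± 0.18 (0.09 to 0.92), with an adjusted p of 0.159 by edgeR and 0.0524 by DESeq2. Without KO2 it was 0.67 with an edgeR adjusted p of 0.0383, the one call of a member under any alternative. Its paralogue Scd1 held 16 to 166 counts a library and was at 2.32, 0.435 and 4.02 CPM in KO libraries, against 0.396, 3.16 and 0.354 CPM in WT libraries, so KO1, KO3 and WT2 were high and KO2, WT1 and WT3 low. Fads1 and Fads2, the desaturases of polyunsaturated chains, both had a log2 fold change of 0.03. Gpam, which esterifies the first acyl group to glycerol-3-phosphate, was at 41.3, 49.6 and 43.2 CPM in KO libraries, against 50.9, 57.6 and 51.9 CPM in WT libraries. The groups did not overlap, and the log2 fold change of -0.26 ± 0.11 did not pass the test (adjusted p = 0.233).

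The acyl-CoA synthetases commit free fatty acids to either fate, and their isoforms differ in location and preferred chains. Acsl5 was the most abundant, at 366, 416 and 482 CPM in KO libraries, against 424, 453 and 428 CPM in WT libraries, with KO1 lowest and KO3 highest of the 6. Acsl1, which is tied to oxidation in muscle and to triglyceride synthesis in liver, was at 110, 51.1 and 121 CPM in KO libraries, against 39.5, 78.7 and 54.9 CPM in WT libraries. KO1 and KO3 were above every WT library, and KO2 lay below WT2 and WT3. Its log2 fold change of 0.71 ± 0.36 (-0.15 to 1.56) did not pass the test (edgeR adjusted p = 0.313). For Acsl1, 8.45% of windows occur in transcripts of Gm45244, which overlaps it on the opposite strand, so part of its counts is uncertain. Acsl3, found on lipid droplets, was at -0.09 ± 0.11, and Acsl4, which prefers arachidonic acid and is the X-linked member, was at -0.30 ± 0.17. The sterol regulatory element was sought only as the letters TCACNCCAC, and Acsl1 is the one member that holds them in the windows searched. Variant forms were not sought, so other members are not shown to lack the element. The match in Acsl1 lies before the second of its start sites in RefSeq (GRCm38.p6, chr8:46490716-46490965, plus strand). It is 76 bases before the start on the minus strand, between NF-Y boxes at 172 and 49 bases before the start. Capitals mark all 3.
Acsl1 promoter at the second start: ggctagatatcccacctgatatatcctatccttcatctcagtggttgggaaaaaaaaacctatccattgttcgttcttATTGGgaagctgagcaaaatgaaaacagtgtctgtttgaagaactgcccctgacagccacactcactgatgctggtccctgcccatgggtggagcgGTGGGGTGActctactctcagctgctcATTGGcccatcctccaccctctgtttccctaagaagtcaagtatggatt

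Oxidation begins at the outer mitochondrial membrane with Cpt1a, the carnitine acyltransferase that malonyl-CoA inhibits. It was at 96.3, 165 and 87.0 CPM in KO libraries, against 133, 109 and 123 CPM in WT libraries, so KO2 was the highest and KO3 the lowest of all 6. The log2 fold change was -0.07 ± 0.24 (-0.63 to 0.49). Slc25a20, the carnitine-acylcarnitine carrier of the inner membrane, followed the same order within the KO group, at 59.5, 80.8 and 51.3 CPM, against 78.1, 67.9 and 69.1 CPM in WT libraries. Cpt2, which returns the chain to coenzyme A inside the matrix, was at 0.05 ± 0.11. Without KO2 the log2 fold changes of Cpt1a and Slc25a20 were -0.42 and -0.38, and neither passed the test (edgeR adjusted p = 0.0919 and 0.127). These were the lowest values when 1 library was left out. The highest were 0.09 for Cpt1a and -0.04 for Slc25a20.

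The acyl-CoA dehydrogenases take the first electrons from chains of decreasing length. Acadl, the long-chain enzyme, was at 231, 243 and 241 CPM in KO libraries, against 263, 230 and 243 CPM in WT libraries, and the groups overlapped. Acadvl, Acadm and Acads, for very long, medium and short chains, had log2 fold changes of 0.09, 0.19 and -0.04. Exons of Acadvl overlap those of Dvl2 on the opposite strand over 42.9% of their bases, and since strand was not recorded by this library chemistry, reads in that part cannot be assigned to either gene. The later steps on long chains are carried by the trifunctional protein, whose α subunit is encoded by Hadha and β subunit by Hadhb. Hadha was at 141, 150 and 166 CPM in KO libraries, against 121, 131 and 134 CPM in WT libraries, with every KO library above every WT library. Its log2 fold change was 0.24 ± 0.09 (0.03 to 0.45), with an edgeR adjusted p of 0.172. Hadhb was at 92.9, 100 and 105 CPM in KO libraries, against 103, 101 and 96.1 CPM in WT libraries, a log2 fold change of -0.01 ± 0.08, and 14.8% of its windows occur in transcripts of Gm13910 or Gm9108. The ratio of Hadha to Hadhb was 1.53 ± 0.0427 in KO libraries and 1.28 ± 0.111 in WT libraries (SD, n = 3 each, exact two-sided permutation p = 0.1, the smallest that 3 against 3 allows). It was examined after the values were seen, when Hadha was known to separate the groups, so this p adds no support. The genes are shown because they start head to head, 272 bases apart (RefSeq, GRCm38.p6). In the 250 bases before Hadhb (chr5:30155003-30155252, plus strand), capitals mark the 228 bases that also lie within 250 bases of the start of Hadha.
Hadha and Hadhb shared promoter: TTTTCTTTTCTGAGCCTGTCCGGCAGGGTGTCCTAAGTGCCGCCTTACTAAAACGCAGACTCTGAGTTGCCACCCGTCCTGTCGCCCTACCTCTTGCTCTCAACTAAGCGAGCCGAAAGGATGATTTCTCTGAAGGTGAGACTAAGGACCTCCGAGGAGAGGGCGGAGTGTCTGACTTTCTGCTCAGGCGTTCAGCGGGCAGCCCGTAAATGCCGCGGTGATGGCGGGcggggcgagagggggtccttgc

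Echs1, Hadh and Acaa2 carry the later steps on shorter chains as hydratase, dehydrogenase and thiolase. Acaa2 was at 147, 165 and 189 CPM in KO libraries, against 170, 189 and 177 CPM in WT libraries, and the log2 fold changes of the 3 genes lay between -0.10 and 0.01. The auxiliary enzymes Eci1, Eci2 and Decr1 move or remove double bonds so that unsaturated chains can enter the cycle. Eci1 was at 91.7, 89.7 and 94.8 CPM in KO libraries, against 84.6, 103 and 91.5 CPM in WT libraries. Eci2, an isomerase found in mitochondria and peroxisomes, was at 57.6, 58.9 and 61.9 CPM in KO libraries, against 65.4, 81.2 and 70.6 CPM in WT libraries. All KO libraries lay below all WT libraries, at a log2 fold change of -0.28 ± 0.11 (-0.53 to -0.03), with an edgeR adjusted p of 0.178. Decr1 was at -0.18 ± 0.16.

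Electrons from the dehydrogenases pass through the heterodimer of Etfa and Etfb to Etfdh, which hands them to ubiquinone. Etfa was at 237, 227 and 234 CPM in KO libraries, against 198, 218 and 224 CPM in WT libraries, with every KO library above every WT library. Etfb was at 86.9, 104 and 85.3 CPM in KO libraries, against 109, 104 and 110 CPM in WT libraries, with every KO library below every WT library, KO2 and WT2 being nearly equal. Their log2 fold changes were 0.13 ± 0.07 and -0.22 ± 0.10, and neither passed the test (adjusted p = 0.380 and 0.240). The ratio of Etfa to Etfb was 2.55 ± 0.317 in KO libraries and 1.99 ± 0.141 in WT libraries (SD, n = 3 each), also examined after the values were seen. Since every KO library was higher for Etfa and lower for Etfb, the ratio had to separate the groups. Its exact two-sided permutation p of 0.1, the smallest possible, was thus fixed beforehand and adds no support. For Etfb, 35.8% of windows occur in transcripts of Gm45233, which overlaps it on the same strand, so part of its counts is uncertain. Etfdh was at -0.06 on the log2 scale. Acaa1a, the peroxisomal thiolase, was at 53.9, 66.9 and 61.2 CPM in KO libraries, against 68.6, 60.8 and 68.5 CPM in WT libraries, with 9.72% of windows shared, its near copy Acaa1b among the matches.

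**Figure D2:**
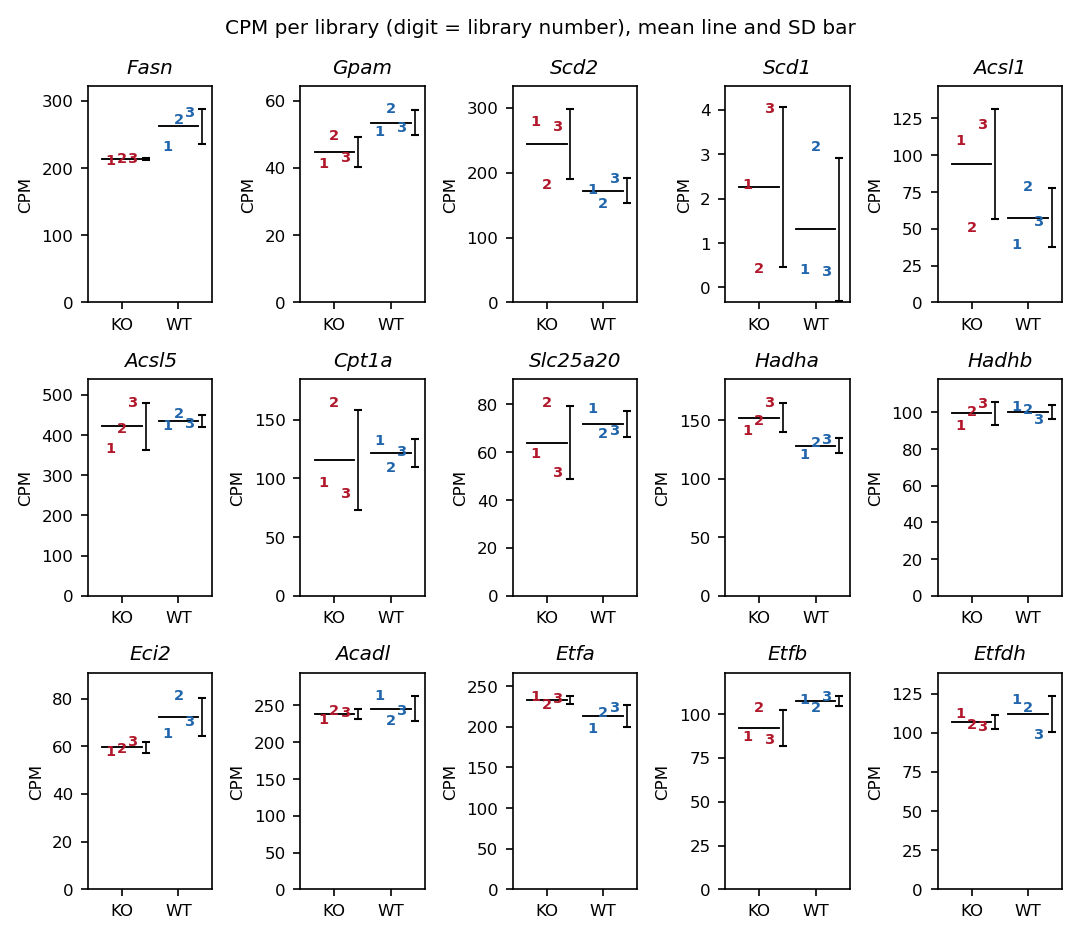
CPM of 15 members in each library, with KO libraries left of WT libraries, digits for the library number, lines for the mean and bars for the SD (n = 3 each). For Acsl1, Scd2, Cpt1a and Slc25a20, library 2 of the KO group stands away from libraries 1 and 3.

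The spread within the KO group was as large as most differences between groups. KO2 lay above both KO1 and KO3 for 15 members and below both for 11. The highest KO library was at least 1.5 times the lowest for 5 members, against 3 members among the WT libraries. Over all 6 libraries the range stayed under 2-fold for 33 of 35. Erythroid markers also differed between libraries. The 17 erythroid markers in the table summed to 30575, 10610 and 34355 CPM in KO libraries, against 5015, 15454 and 9194 CPM in WT libraries. None of the 17 was at 0 in all libraries, and none passed the test. Acsl1, Scd1 and Eci1 were highest in KO3, KO1 and WT2, the 3 libraries with the most erythroid RNA. Acly, Elovl5, Cpt1a, Slc25a20, Acadl, Decr1 and Acaa1a were lowest in these libraries. The remaining members did not split the libraries in this way. This order was looked for after the values were seen. With the mean of these markers as a covariate, the log2 fold change was -0.17 for Acsl1, -1.36 for Scd1, 0.34 for Cpt1a, 0.28 for Scd2 and -0.37 for Fasn, and 13 of the 35 members changed sign. No member passed the test in that fit either, and the part of other cells in these values was otherwise not tested.

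**Figure D3:**
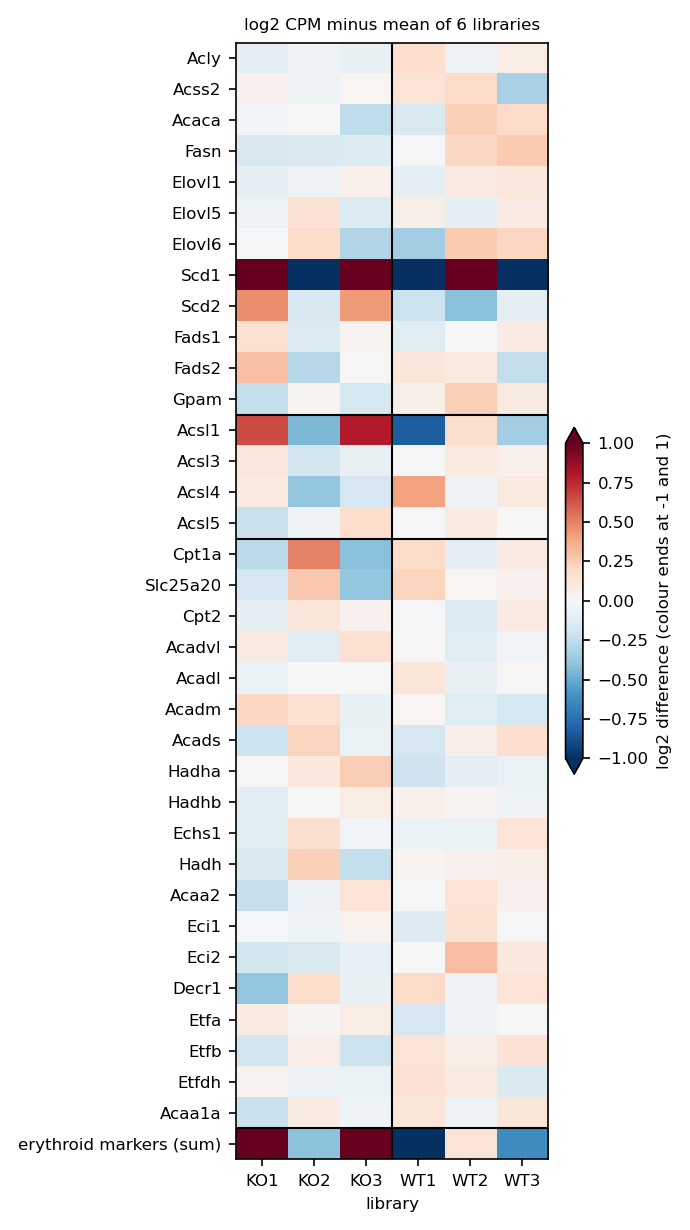
Log2 CPM of each member minus its mean over the 6 libraries, with colours ending at -1 and 1, KO libraries left of WT libraries, and the summed erythroid markers in the bottom row. Most members stay near 0, while Scd1 and Acsl1 lie above their mean in KO1, KO3 and WT2, as the erythroid row does.

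Levels per length ordered the isoforms within each family. Per kilobase of exon the most abundant members were Etfa, Acadl and Acaa2, at 167, 124 and 110 CPM per kilobase in KO libraries, against 153, 128 and 118 in WT libraries. Acsl5 made up 71.6 ± 6.49% of the summed level per length of the long-chain acyl-CoA synthetases in KO libraries and 75.5 ± 1.42% in WT libraries (SD, n = 3 each). Scd2 made up 99.0, 99.7 and 98.4% of the stearoyl-CoA desaturases in KO libraries, against 99.6, 97.7 and 99.8% in WT libraries. Cpt1a held 60.4, 85.0 and 66.6% of its family in KO libraries, against 71.0, 69.9 and 69.9% in WT libraries, nearly all of the rest being Cpt1c, while the muscle form Cpt1b did not pass the filter. Elovl1 held 71.2 ± 2.86% of the elongases in KO libraries and 71.3 ± 2.66% in WT libraries. Acadl held 50.4 ± 0.759% of the dehydrogenases in KO libraries and 52.5 ± 1.79% in WT libraries.

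**Figure D4:**
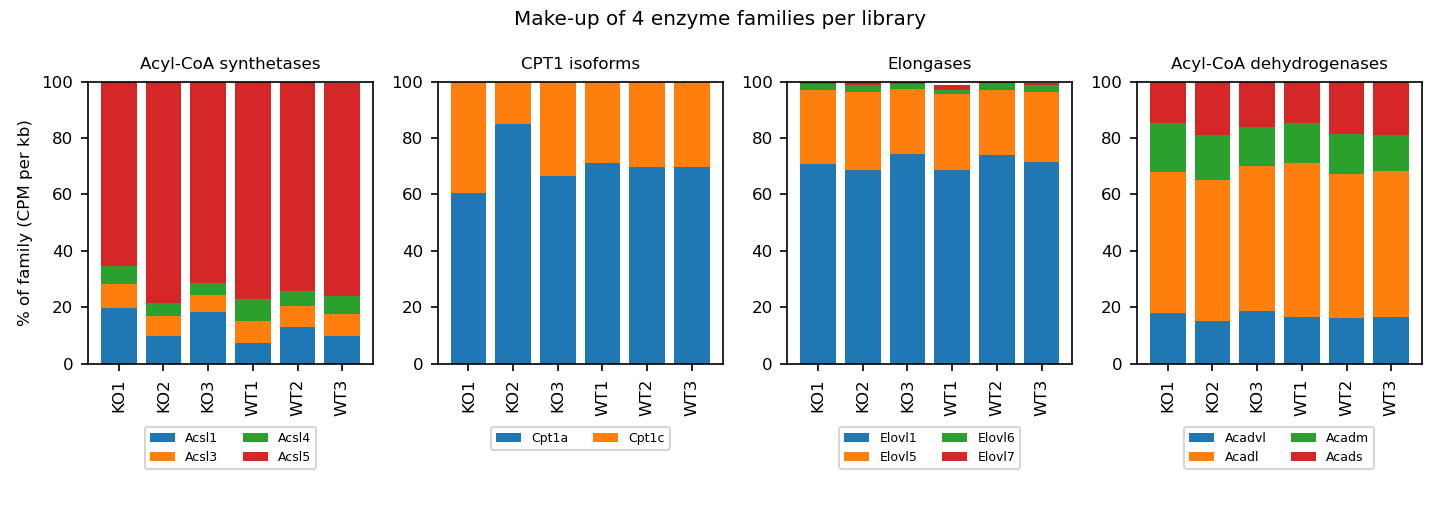
Share of each isoform in its family's summed CPM per kilobase, in percent, for each library, KO libraries left of WT libraries. Acsl5, Cpt1a, Elovl1 and Acadl fill the largest part of their bars in all 6 libraries.

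Around the members, 142 further genes of fatty acid metabolism were listed, of which 119 were tested, and 2 rose and 2 fell (3.36%), a share near the 3.56% of all genes tested. Mecr, the last enzyme of mitochondrial fatty acid synthesis, was at 55.5, 59.6 and 57.0 CPM in KO libraries, against 75.2, 90.1 and 83.9 CPM in WT libraries, and fell by 0.53 ± 0.10 on the log2 scale (edgeR adjusted p = 0.0373). It was the 1 gene of 19 tested to pass among other steps of synthesis, whose median log2 fold change was -0.13. Ehhadh, the peroxisomal bifunctional enzyme, was at 12.5, 16.7 and 16.1 CPM in KO libraries, against 33.9, 40.5 and 33.2 CPM in WT libraries, and fell by 1.25 ± 0.16 (adjusted p = 0.0171). It was the 1 of 14 peroxisomal genes tested to pass, and their median was 0.17. In uptake, storage and lipolysis, 1 of 23 rose and 0 fell. This was Lpin2, a phosphatidate phosphatase, at 178, 131 and 157 CPM in KO libraries, against 91.5, 109 and 89.0 CPM in WT libraries, with a log2 fold change of 0.69 ± 0.14 (adjusted p = 0.0461). With the erythroid covariate, edgeR no longer called Lpin2 (adjusted p = 0.137) or Mecr (0.0772), and limma-voom did not call Lpin2 (0.0508), while Ehhadh passed in both.

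Among 27 regulators tested, 1 rose and 0 fell. Nr1h3, the oxysterol receptor LXRα that drives lipid synthesis genes, was at 3.47, 2.40 and 2.28 CPM in KO libraries, against 0.376, 0.211 and 0.729 CPM in WT libraries, a log2 fold change of 2.62 ± 0.54 (adjusted p = 0.0482). Macrophage and dendritic cell markers summed to 164 to 256 CPM in KO libraries and 61.5 to 90.2 CPM in WT libraries. Of 16 tested, 5 passed, all higher in KO libraries. Flt3, Adgre1 and Cd68 of the same list had negative log2 fold changes, of -1.63, -0.26 and -0.20. The part of these cells in the level of Nr1h3 was not tested. With the erythroid covariate the edgeR adjusted p of Nr1h3 was 0.140. Srebf1, which drives the synthesis genes, was at 141 ± 10.1 CPM in KO libraries and 141 ± 19.5 CPM in WT libraries, and was named after its values were seen. No other mitochondrial oxidation gene of 19 tested passed. The smallest p among them was that of Hsd17b10, an X-linked dehydrogenase, at 132 ± 8.53 CPM in KO libraries and 166 ± 3.12 CPM in WT libraries (SD, n = 3 each), with an adjusted p of 0.0654 by edgeR and 0.00509 by DESeq2. None of 17 other activation and thioesterase genes passed, and the smallest p was that of Acsl6, at 1.15 ± 0.446 CPM in KO libraries and 2.65 ± 0.908 CPM in WT libraries (SD, n = 3 each, edgeR adjusted p = 0.171). When 1 library was left out, Mecr passed only without WT1 (edgeR adjusted p = 0.0432, otherwise 0.0554 to 0.147), and Lpin2 only without KO2 (0.0384, otherwise 0.0661 to 0.187). Ehhadh was lost without KO1 (0.0503), KO3 (0.0558) or WT3 (0.0746), and Nr1h3 without any 1 of the 6 (0.0681 to 0.144).

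**Figure D5:**
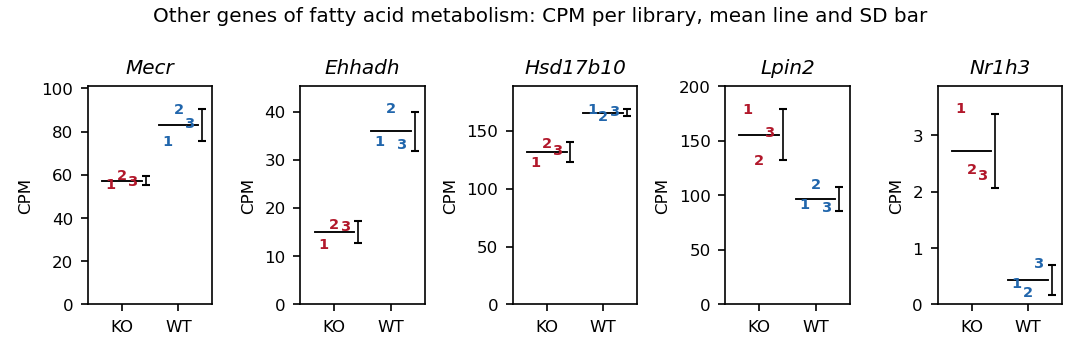
CPM in each library of Mecr, Ehhadh, Hsd17b10, Lpin2 and Nr1h3, genes of fatty acid metabolism outside the 35, with KO libraries left of WT libraries. KO libraries lie below WT libraries for Mecr, Ehhadh and Hsd17b10 and above them for Lpin2 and Nr1h3.

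RefSeq promoters, 250 bases before to 50 after a start site, were matched by symbol for 30 of the 35 members, all but Scd1, Scd2, Fads1, Acaa2 and Decr1. The NF-Y box CCAAT, searched on both strands, was in 16 of 30 (53.3%). It was in 6 of 9 synthesis genes, 3 of 4 activation genes and 7 of 17 oxidation genes. Of all 27025 genes with a promoter 41.1% held it, and of the 10658 tested genes with a promoter 43.2%. The sterol regulatory element, sought only as TCACNCCAC, was in 1 member, Acsl1, in 1.44% of all and in 1.42% of those tested. The E-box CACGTG was in 1 member, Elovl5, in 8.09% of all and in 11.6% of those tested. A PPAR element, AGGTCA repeated with any 1 base between, was in 0 of 30, in 0.0481% of all and in 0.0657% of those tested. These matches describe the letters in the windows and not binding.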

How the data were processed

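RNA of sorted leukaemia cells was amplified as cDNA (SMARTer kit) and tagmented with Nextera XT, per the labels' protocols. This chemistry marks neither strand nor molecule, so amplified copies count as separate reads. The intervals come from the fit across libraries and include the spread between them. The authors deposited whole-number read counts per gene. The submitters' processing notes name the aligner STAR 2.7.9a, the read trimmer fastp 0.23.1, and featureCounts of Subread 2.0.1. No source used here gives the build, the annotation or the treatment of multiply matching reads.

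Genes were filtered with filterByExpr (minimum count 10, minimum total 15), normalised by TMM and tested with the edgeR 4.0.16 quasi-likelihood F test in R 4.3.3, with Benjamini-Hochberg adjustment over 15232 genes at 0.05. Standard errors are the size of the log2 fold change divided by the square root of F. In a library, 3 counts correspond to 0.0594 to 0.0727 CPM. Alternatives were DESeq2 1.42.0, limma 3.58.1 voom, other scalings and filters, an erythroid covariate, a replicate block and leaving out each library. Levels per length used the exon union of the basic transcripts of GENCODE M21. Shared windows of 100 bases were sought in other genes' transcripts. The code was tested on simulated counts.

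All 35 members are named. Per-library values are given for members whose groups did not overlap and for the most abundant of each role per length. Scd1, Acsl1 and Cpt1a were added after their values were seen. The members and lists were chosen with earlier results of these data known. Same-numbered libraries were not treated as pairs, and the correlations of their deviations were 0.0632, -0.143 and -0.0665. As the deviations are from means of only 3 libraries, these values cannot decide whether the numbers pair samples.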

Additional observations from a re-analysis of the deposited data

How the results depend on the processing

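Of 525 member values over 15 alternatives, 524 kept their side of the threshold and 1, Scd2 without KO2, passed the test. In 19 members the sign of the fold change differed in at least 1 alternative. Leaving out 1 library gave 0 to 1 members higher, 13 to 371 genes higher and 29 to 247 lower over all genes tested, and 0 to 2 higher and 0 to 2 lower among the listed genes outside the members. DESeq2 called 1075 genes higher and 920 lower, of which 7 and 5 were listed genes outside the members. With the replicate block, 8 genes were higher and 20 lower, 0 and 0 of the listed genes passed, and no member did. Whether the numbers pair the samples is not known. With the erythroid covariate, 145 genes were higher and 103 lower, with 1 listed gene higher, the dehydratase gene Hacd4, and 1 lower, Ehhadh, and the median log2 fold change was -0.13 in synthesis, -0.19 in activation and 0.042 in oxidation. Library totals alone and limma-voom each called 1 listed gene higher. Lengths from all transcripts of the annotation, chosen after seeing the data, gave family shares of 68.5% for Elovl1, 79.5% for Acaca and 58.2% for Acadl, against 71.3%, 86.3% and 51.5%; by those lengths Hadhb ranked below Hadha and Cpt2 above Cpt1a. The adjusted p of Fasn ran between 0.0526 and 0.334 over all alternatives. The cause of these changes was not tested. Members other than Scd1 held at least 626 counts in each library.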

Other observations

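Crat, the carnitine acetyltransferase that exports acetyl groups and is not among the 35, was at 112, 40.7 and 107 CPM in KO libraries, against 30.0, 45.3 and 39.5 CPM in WT libraries (edgeR adjusted p = 0.130). KO1 and KO3 were above every WT library and KO2 lay within the WT range. It was picked after its values were seen. T and NK cell markers summed to 760 to 1055 CPM in KO libraries and 705 to 859 CPM in WT libraries, with 6 of 16 tested higher in KO libraries. Most of that sum was Nkg7, and without it the other 16 genes of the list summed to 59.5, 22.3 and 44.3 CPM in KO libraries, each above the highest WT library, at 22.0 CPM. B cell markers summed to 64.1 to 168 CPM in KO libraries and 5.69 to 43.3 CPM in WT libraries, with 3 of 9 higher. Neutrophil markers summed to 30.1 to 241 CPM in KO libraries and 116 to 794 CPM in WT libraries, and 0 of 12 tested passed by edgeR. Their part in the members' values was not tested.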
